A study of Mus musculus with 8 samples.

Results

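The integrated stress response genes are a set of 32 genes that sense or carry out one stress programme, read here through chromatin accessibility in mouse regulatory T (Treg) cells. A peak (a stretch of open chromatin) belonged to a gene when that gene was the nearest RefSeq protein-coding gene to it, at no more than 50 kb from the gene span. All 32 genes were matched by symbol, 26 of them had at least 1 peak, and they held 70 of the 57199 peaks in the table. Of these 70 peaks, 42 overlapped the span of their gene and 28 lay outside it. Cebpb had the most, 9, and 10 genes had only 1.

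The response starts with 4 kinases that phosphorylate the translation factor eIF2α: Eif2ak1 encodes HRI, which senses haem shortage and mitochondrial stress, Eif2ak2 encodes PKR, a sensor of double-stranded RNA, Eif2ak3 encodes PERK, in the endoplasmic reticulum membrane, and Eif2ak4 encodes GCN2, a sensor of uncharged tRNA. Phosphorylated eIF2α lowers general protein synthesis but favours translation of ATF4, a transcription factor that pairs with C/EBP proteins on the genes for amino acid synthesis, amino acid transport and tRNA charging. In T cells the GCN2 arm is best known for answering amino acid shortage. Flcn encodes folliculin, a lysosomal regulator of nutrient signalling through mTORC1 and of the TFE3 and TFEB transcription factors.

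ATAC-seq marks open DNA by transposase insertion; the cells were CD4+ Foxp3-YFP+ splenocytes of mixed bone-marrow (BM) chimeras, sorted as positive for the leukocyte marker CD45.2 and negative for its CD45.1 form. The WT group (4 libraries) held cells of a wild-type donor and the Flcn KO group (4 libraries) held cells of a Foxp3Cre Flcn fl/fl donor, in which Foxp3-driven Cre recombinase deletes the floxed gene in Foxp3-expressing cells. Cells of both groups carried the Foxp3-driven YFP. Information on a Cre in the WT donor, on remaining host cells, on the age of the mice or on pooling is not given in the sources used here. Per the labels, each group's 4 libraries are biological replicates.

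Deposited counts summed to between 2723344 and 5111728 a library. At Flcn itself 4 peaks were assigned, of which 2 were tested and 0 were called. The other 2, inside the gene, were below the filter on low counts: raw counts, replicates 1 to 4, were 0, 2, 0 and 0 in WT against 16, 4, 8 and 16 in Flcn KO at the first, and 0, 0, 2 and 0 against 2, 9, 18 and 21 at the second. Flcn KO libraries thus held most of the counts there. Which part of the gene the floxed allele removes is unknown here, so these values were not used to check the labels. All 5 Treg markers (Foxp3, Il2ra, Ctla4, Ikzf2 and Tnfrsf18) had peaks, with 3 called higher and 1 lower of 68 tested. Among markers of other cells, Ms4a1, Lyz2, Csf1r and Hbb-bs had none, while the B cell markers Cd79a and Pax5, the myeloid markers Itgam, Cd14 and Spi1, and Cd8a and Cd8b1 did. Of the 3, 8 and 4 tested peaks at B cell, myeloid and CD8 T cell markers, 0 were called. The summed level at the erythroid markers, 2 of 3 with a peak, ran from 26.5 to 32.0 CPM (counts scaled to library size) in WT and from 37.3 to 52.7 CPM in Flcn KO, and 1 of their 3 tested peaks was higher. Natural killer cell markers had 1 higher and 1 lower of 12 tested peaks. Their summed level ran from 237 to 271 CPM in WT and from 249 to 329 CPM in Flcn KO. At the T cell markers Cd3e, Cd3g and Cd4 it ran from 90.1 to 105 CPM in WT and from 75.4 to 94.0 CPM in Flcn KO, with 0 of 7 tested peaks called. The part of any of these in the results on the stress response genes was not tested.

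One peak, inside Eif2ak3, was called more open in Flcn KO cells, and 0 were called less open. Of the 70 peaks, 62 in 25 genes passed the filter on low counts and were tested with edgeR's quasi-likelihood test over all 47859 tested peaks. At an adjusted p below 0.05, 1 was called higher, 0 lower and 61 were not called; DESeq2 and limma-voom gave the same counts of 1 and 0. Over all tested peaks 1.35% were called higher and 1.02% lower, so the members' 1.61% and 0% were near the background. At an unadjusted p below 0.05, 5 member peaks were higher (6.87% of all tested peaks were) and 2 lower (5.99% of all), together 11.3% of the members' peaks against 12.9%. In 7 member peaks (11.3%) the 4 WT libraries did not overlap the 4 Flcn KO libraries, against 7.59% of all tested peaks. The median log2 fold change (Flcn KO minus WT) was −0.05 over the 62 peaks, from −0.93 to 1.31, and 0.00 over all tested peaks. In bulk ATAC-seq a change in how many cells are open at a site and a change in how open each cell is cannot be told apart.

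**Figure D1:**
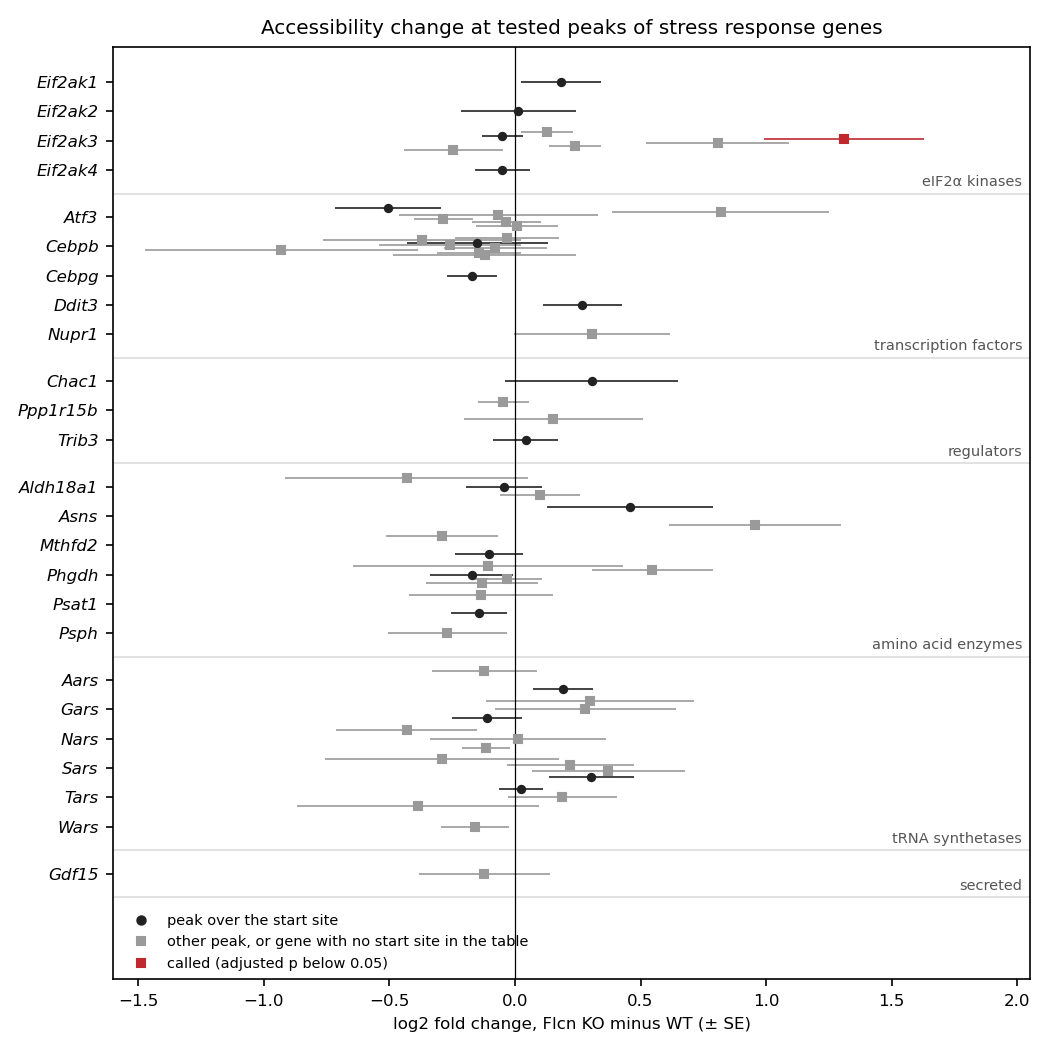
Log2 fold change (Flcn KO minus WT, x axis) with its standard error (bars) for the 62 tested peaks of 25 genes, grouped by role. Circles are peaks over a start site, and grey squares are other peaks or peaks of genes (Nars, Wars, Ppp1r15b) with no start site in the promoter table. The red square, at 1.31 in Eif2ak3, is the only called peak.

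By role, the 9 tested peaks at the eIF2α kinases had a median log2 fold change of 0.13, with 1 called higher, and 3 higher and 0 lower at an unadjusted p below 0.05. All 3 of these lay inside Eif2ak3. At the transcription factors the median over 17 tested peaks was −0.12, 0 were called, and 0 were higher and 2 lower at an unadjusted p below 0.05, both at Atf3. The amino acid and one-carbon enzymes had a median of −0.11 over 15 tested peaks, 0 called, and 2 higher at an unadjusted p below 0.05, at Asns and Phgdh. The 16 peaks of tRNA synthetases (median 0.02), the 4 of feedback regulators (median 0.10) and the 1 of a secreted factor, Gdf15, gave 0 calls and 0 at an unadjusted p below 0.05. For transcription factors, 4 of 17 peaks were above 0, and for enzymes 4 of 15, against 24207 of 47859 over all tested peaks. Over all tested start-site peaks, 3199 of 7862 were above 0. Of the 9 kinase peaks, 6 were at Eif2ak3, so their median mostly describes that gene. The tested peaks of Eif2ak1, Eif2ak2 and Eif2ak4 stood at 0.18, 0.01 and −0.05. Of the 17 factor peaks, 8 were at Cebpb and 6 at Atf3, and peaks of the same gene may not be independent.

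Start sites of these genes were mostly open in both genotypes. Of the 29 members with a start site in the RefSeq promoter table, 23 had a peak over it. Over all protein-coding genes in that table, 48.1% had one. Among the 22 start-site peaks that were tested, 0 were called and 1, at Atf3, had an unadjusted p below 0.05. Over all tested start-site peaks 0.445% were called, and 7.15% had an unadjusted p below 0.05. The members' median was −0.05, with a range of −0.51 to 0.46, and the median over all tested start-site peaks was −0.04.

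The levels at the start-site peaks assigned to members spanned a wide range. Per kb of peak, the WT mean was highest at Eif2ak3 with 459 ± 22.4 CPM per kb (SD, n = 4), then Tars (threonyl-tRNA synthetase) with 276 ± 18.2, Eif2ak4 with 142 ± 11.6 and Aars (alanyl-tRNA synthetase) with 126 ± 13.5. The mean ± SD ranges of Eif2ak4 and Aars overlapped. The Psph start-site peak, counted to its neighbour Cct6a, had 200.4 CPM per kb. Genes with no start site in the promoter table were not ranked. In WT their strongest peaks had 260 CPM per kb at Nars, 187 at Ppp1r15b and 42.3 at Wars. At the other end stood Cebpb with 17.0 CPM per kb, Asns with 15.1 ± 1.55 and Chac1 with 13.6 ± 3.88. Shmt2, which encodes the mitochondrial serine hydroxymethyltransferase, had 7.41 CPM per kb and did not pass the filter.

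**Figure D2:**
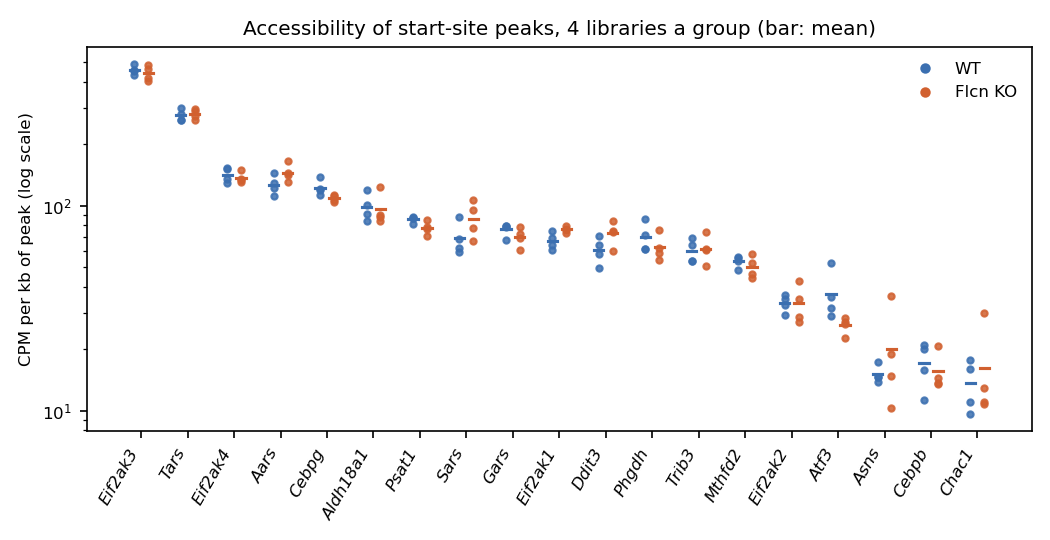
Level of each tested start-site peak assigned to a member (y axis, CPM per kb of peak, log scale) in the 4 WT (blue) and 4 Flcn KO (orange) libraries, with bars at the group means, ordered by level. WT means fall from 459 CPM per kb at Eif2ak3 to 13.6 at Chac1, and single Flcn KO libraries stand above the rest at Asns and Chac1.

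No peak lay over a start site in 6 members: Atf4, Nupr1, Pycr1, Fgf21, Gdf15 and Vldlr. For Atf4, the factor at the centre of the response, the nearest peak in the table lay 29.6 kb from the gene and belonged to Mief1. Pycr1, a proline synthesis enzyme, was 29.0 kb from the nearest peak, the hormone gene Fgf21 13.2 kb and Vldlr, a lipoprotein receptor, 92.0 kb. The table used here may not hold every peak, so a missing peak, at Atf4 above all, does not show that the site was closed. Nupr1, a stress-induced transcriptional regulator, and Gdf15, a stress-induced cytokine, each had 1 tested peak elsewhere. Atf5, Ppp1r15a and Psph did have a peak over a start site, but it touched a neighbour and was assigned to that gene. That peak went to Il4i1b for Atf5 (an ATF4-like factor; log2 fold change −0.08), to Plekha4 for Ppp1r15a (GADD34, the inducible eIF2α phosphatase subunit; 0.04) and to Cct6a for Psph (phosphoserine phosphatase; −0.09). The edgeR unadjusted p of these was 0.518, 0.816 and 0.356. Peaks at Ddit3, Wars, Cebpg, Eif2ak2 and Aars also have a near or overlapping neighbour (Mbd6, Wdr25, Gm45095, Gm26637 and Ddx19b) and could equally be counted to it.

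The promoter windows, 250 bases before to 50 after a start site, were searched on both strands for the C/EBP-ATF composite element TGATGNAAN, the site at which ATF4 and C/EBP pair. It was found in 11 of the 29 members (37.9%) and in 3.95% of the 32851 promoter windows of that length. The members include textbook ATF4 targets, so this share describes how they were chosen. For every motif, members were counted by gene, some with several windows, and the background by window. That can raise the members' shares. The 11 were Aars, Asns, Atf3, Chac1, Fgf21, Gars, Nupr1, Pycr1, Tars, Trib3 and Vldlr, and in Trib3 the match follows the start site. The form ATTGCATCA, whose reverse complement is one spelling of that element, was in Aars, Fgf21, Nupr1 and Pycr1 (13.8% of members, 0.192% of all windows). The following stretches show the element, in capitals as read on the gene's strand, for the 6 members in which it lay before the start site and inside a peak. The Trib3 match, 13 bases past the start site, and a second Aars match, 8 bases past its start site, also lay inside a peak and are not printed. The printed stretches come from RefSeq (GRCm38.p6).
Asns (chr6:7693210-7693257, minus strand): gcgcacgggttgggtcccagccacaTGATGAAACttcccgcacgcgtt
Chac1 (chr2:119351023-119351081, plus strand): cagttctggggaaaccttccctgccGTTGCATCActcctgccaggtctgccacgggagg
Atf3 (chr1:191183411-191183469, minus strand): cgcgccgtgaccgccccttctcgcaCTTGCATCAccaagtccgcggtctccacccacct
Aars (chr8:111033704-111033762, plus strand): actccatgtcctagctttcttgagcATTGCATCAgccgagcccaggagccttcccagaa
Gars (chr6:55037945-55038000, plus strand): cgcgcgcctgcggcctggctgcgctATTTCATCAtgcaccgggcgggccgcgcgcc
Tars (chr15:11399659-11399699, minus strand): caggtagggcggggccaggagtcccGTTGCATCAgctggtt
In Pycr1, Nupr1, Fgf21 and Vldlr no peak covered the element. It lies 103, 111, 140 and 201 bases before the start site there, against 111 in Atf3, 113 in Aars and 194 in Chac1. The stretches of Pycr1 and Nupr1 are printed.
Pycr1 (chr11:120643818-120643876, minus strand): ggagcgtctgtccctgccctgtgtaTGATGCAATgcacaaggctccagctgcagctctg
Nupr1 (chr7:126625548-126625606, minus strand): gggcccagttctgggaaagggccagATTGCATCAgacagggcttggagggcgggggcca
Pycr1, Nupr1 and Fgf21 hold the full ATTGCATCA or its reverse complement, as does Aars, whose element lay in a peak of 55.7 ± 5.97 CPM in WT. The identical core stood in covered and uncovered windows. Of the other motifs, the ATF core TGACG was in 41.4% of members and 20.8% of windows, and its extended form TGACGTCA only in Ppp1r15a among the members (1.79% of windows). The E-box CACGTG was in 20.7% of members and 7.15% of windows, and TCACGTGA, which contains it and which TFE-type factors read, only in Aars (0.974% of windows). The ER stress element was in 0 members (0.119% of windows). These matches are letters in a window and say nothing of whether a factor was bound.

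Eif2ak3 (chromosome 6, 70844484 to 70905241, mm10) carried the one call. The peak spans 70862651 to 70863084, inside the gene and 18.4 kb past its start site; exon and intron positions were not used here. The WT libraries, replicates 1 to 4, held 2.91, 4.02, 3.06 and 4.92 CPM and the Flcn KO libraries 10.9, 11.2, 7.96 and 6.48 CPM. Every Flcn KO library stood above every WT library. The mean was 3.73 ± 0.936 CPM (WT) against 9.15 ± 2.32 CPM (Flcn KO; SD, n = 4), which is 1.31 ± 0.32 on the log2 scale (SE), or 2.48-fold, with an edgeR adjusted p of 0.0158. This is a weak peak. The call ended without WT replicate 1 (log2 fold change 1.20, edgeR adjusted p 0.0656) or without Flcn KO replicate 2 (1.21, edgeR adjusted p 0.0735), and the peak did not pass the stricter filter.

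The start-site peak of Eif2ak3 did not share this difference. It held 338 ± 16.5 CPM (WT) against 326 ± 28.5 CPM (Flcn KO; SD, n = 4), which is −0.05 ± 0.08 on the log2 scale (SE, edgeR adjusted p 0.869), and the groups overlapped. A pair of peaks further into the gene had values on the higher side without a call. At 27.2 kb past the start site, WT libraries held 3.94, 6.25, 6.63 and 7.38 CPM and Flcn KO libraries 7.82, 12.3, 12.9 and 9.14 CPM, which is 0.81 ± 0.29 on the log2 scale (SE, edgeR adjusted p 0.150). At 27.8 kb, WT libraries held 67.7, 83.4, 75.5 and 79.5 CPM and Flcn KO libraries 91.9, 91.4, 88.3 and 89.2 CPM, a difference of 0.24 (SE 0.10, edgeR adjusted p 0.294). Neither overlapped between the groups. The peak at 36.6 kb (−0.25) and the peak 19.6 kb before the start site (0.13) were not called, and the latter's Flcn KO libraries lay on both sides of the WT range.

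Further upstream of Eif2ak3, between 30.3 and 28.8 kb before its start site, 3 peaks opened more strongly, but their nearest gene is Rpia, a pentose phosphate pathway enzyme, so they are not among the 70. They were singled out after their values were seen. Their log2 fold changes ran from 1.59 (SE 0.19) to 2.75 (SE 0.32), all called by edgeR. In the strongest, WT libraries lay between 1.48 and 6.12 CPM and Flcn KO libraries between 13.7 and 26.9 CPM. Within 50 kb of the Eif2ak3 start site, 4 of 14 tested peaks were called higher and 0 lower, where 1.35% and 1.02% of all tested peaks were. The window was chosen because Eif2ak3 held a call, which is 1 of the 4. Which gene these peaks serve was not tested.

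**Figure D3:**
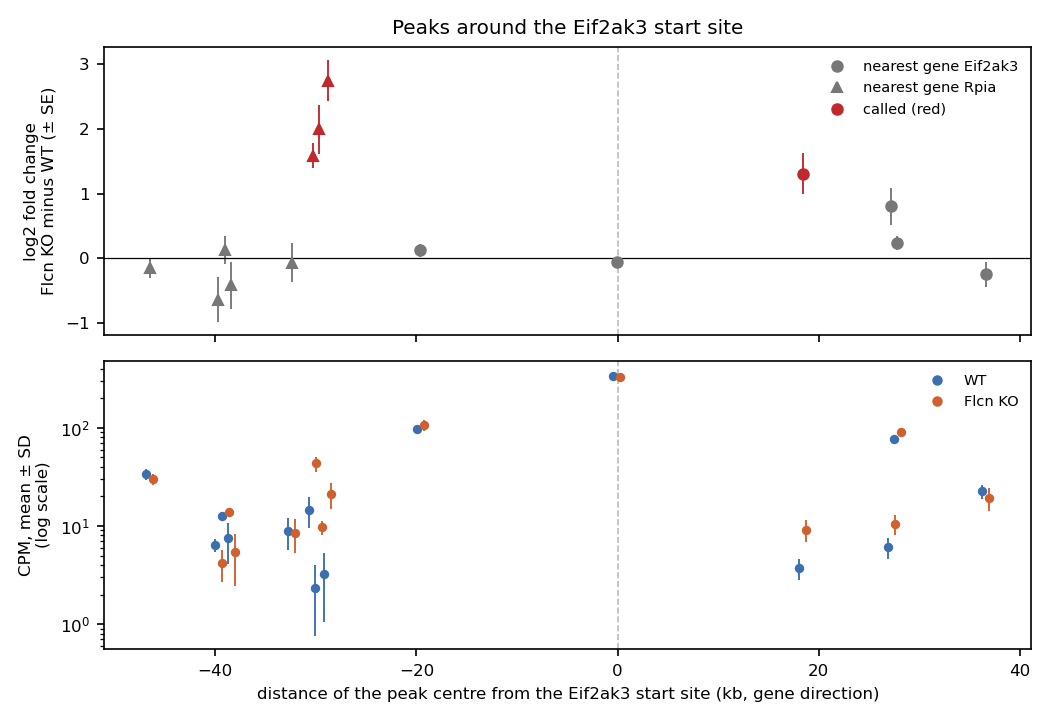
Peaks within 50 kb of the Eif2ak3 start site by the distance of their centre (x axis, kb, gene direction). The upper panel gives the log2 fold change with its SE, with called peaks in red, circles where the nearest gene is Eif2ak3 and triangles where it is Rpia; the lower panel gives the mean CPM with its SD (log scale) for WT (blue) and Flcn KO (orange), 4 libraries each. The start-site peak lies at −0.05, and 4 of the 14 peaks are called.

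The other kinase genes had no call. The start-site peak of Eif2ak1 held 25.7 ± 2.37 CPM (WT) against 29.2 ± 0.894 CPM (Flcn KO; SD, n = 4), which is 0.18 ± 0.16 on the log2 scale (SE). That of Eif2ak4 had a difference of −0.05 (SE 0.11) and that of Eif2ak2 one of 0.01 (SE 0.23). Inside Eif2ak2, a very weak peak 7.2 kb past the start site (chromosome 17, 78875309 to 78875508) was below the filter. Its raw counts were 4, 12, 2 and 8 in WT and 0, 0, 1 and 0 in Flcn KO. Without the filter its edgeR adjusted p was 0.0902, so it was not called there either.

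Atf3, a stress-induced repressor and activator of the ATF family, was the only transcription factor gene with peaks at an unadjusted p below 0.05, and both were lower. The start-site peak (chromosome 1, 191183172 to 191183718), which holds the composite element printed above, had 15.8, 28.6, 17.3 and 19.7 CPM in WT and 14.9, 15.5, 12.4 and 14.5 CPM in Flcn KO. All Flcn KO libraries stood below all WT libraries, by a narrow margin, and WT replicate 2 was the highest. The difference was −0.51 ± 0.21 on the log2 scale (SE, edgeR adjusted p 0.259), and −0.30 without WT replicate 2. A stronger peak 10.6 kb before the start site had 88.8, 108, 82.6 and 72.3 CPM in WT and 80.9, 64.4, 73.1 and 69.3 CPM in Flcn KO, a difference of −0.29 (SE 0.12, edgeR adjusted p 0.243). There the groups overlapped. The 4 further Atf3 peaks were not called, and their differences ran both ways: 0.82 at the peak 1.8 kb before the start site (2.69 CPM in WT against 4.83 CPM in Flcn KO, edgeR adjusted p 0.436), −0.07 at 2.8 kb, −0.04 at 41.1 kb and 0.01 at 41.7 kb.

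At Ddit3, which encodes the pro-death factor CHOP, the start-site peak had 28.8 ± 4.26 CPM (WT) against 34.8 ± 4.76 CPM (Flcn KO; SD, n = 4), which is 0.27 ± 0.16 on the log2 scale (SE, edgeR adjusted p 0.509). Cebpg, a C/EBP partner of ATF4, had 112 ± 10.1 against 99.2 ± 3.48 CPM at its start site, −0.17 (SE 0.10, edgeR adjusted p 0.490). The groups did not overlap but all but touched, with 102.608 CPM in the lowest WT and 102.599 CPM in the highest Flcn KO library. Cebpb, which encodes another C/EBP factor, had 8 tested peaks, the first of them 8.8 kb before its start site. Its strongest peak, 24.2 kb past the start site, held 25.3 ± 1.41 CPM (WT) against 22.8 ± 1.61 CPM (Flcn KO), −0.14 (SE 0.17, edgeR adjusted p 0.802). The 1 peak of Nupr1, 5.7 kb past the start site and 3.3 kb from the gene, was at 0.31 (SE 0.31, edgeR adjusted p 0.763).

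Asns encodes asparagine synthetase, a classical ATF4 target. A peak 40.0 kb before its start site (chromosome 6, 7733096 to 7733413) held 4.15, 4.02, 2.55 and 2.95 CPM in WT and 7.04, 6.95, 5.97 and 6.86 CPM in Flcn KO. The groups did not overlap, and the difference was 0.96 ± 0.34 on the log2 scale (SE), but the peak was not called (edgeR adjusted p 0.161). The start-site peak (7693073 to 7693441), over the element shown above, gave a difference of 0.46 (SE 0.33, edgeR adjusted p 0.623). It held 5.40, 5.35, 5.10 and 6.40 CPM in WT and 13.3, 6.95, 5.47 and 3.81 CPM in Flcn KO, so that Flcn KO replicate 1 stood well above the other three, which lay around the WT values. Without that replicate the difference was −0.02.

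The start-site peak of Chac1 (chromosome 2, 119350913 to 119351328), a glutathione-degrading enzyme induced by ATF4, had the same shape. WT libraries held 4.57, 4.02, 6.63 and 7.38 CPM and Flcn KO libraries 12.5, 5.34, 4.48 and 4.57 CPM, which is 0.31 ± 0.34 on the log2 scale (SE, edgeR adjusted p 0.796). Only Flcn KO replicate 1 exceeded the WT range, and without it the difference was −0.22. Replicate 1 was 2.61 times the mean of the other Flcn KO libraries at Chac1 and 2.46 times at Asns. At the remaining tested start-site peaks of members this ratio reached at most 1.41. Of all 62 tested member peaks, 3 had a ratio of 2 or more, as did 4.37% of all tested peaks. Besides Chac1 and Asns this was a weak Cebpb peak 12.8 kb past the start site, with a ratio of 2.49. Over all start-site peaks with a WT mean between 4 and 8 CPM, a ratio of 2 or more was seen in 5.73% (38 of 663). Over all tested peaks the median of this ratio was 0.99. Flcn KO replicate 1 was also the library with the highest total count, and any link of that to the ratio was not tested.

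**Figure D4:**
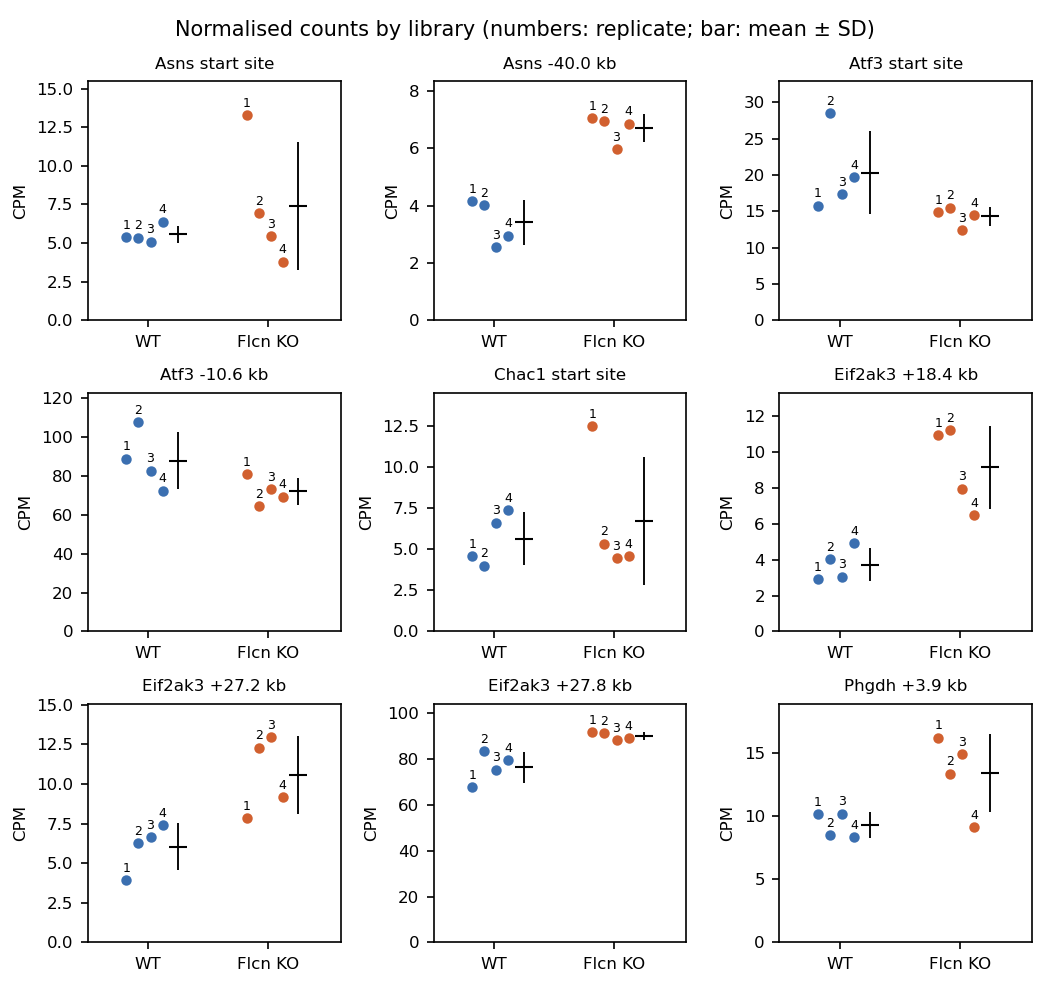
CPM (y axis, from 0) of 9 member peaks in each library, with the replicate number beside each point (WT blue, Flcn KO orange) and the mean ± SD of 4 libraries as a bar. At Eif2ak3 +18.4, +27.2 and +27.8 kb and Asns −40.0 kb the groups separate with Flcn KO higher. At the Atf3 start site they separate with Flcn KO lower. At the start sites of Asns and Chac1 Flcn KO replicate 1 (13.3 and 12.5 CPM) stands far above the other libraries.

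Of the serine synthesis enzymes, Phgdh, which catalyses the first step, had a peak 3.9 kb past its start site with 10.2, 8.48, 10.2 and 8.36 CPM in WT and 16.2, 13.4, 14.9 and 9.14 CPM in Flcn KO. Flcn KO replicate 4 lay within the WT range. The difference was 0.55 ± 0.24 on the log2 scale (SE, edgeR adjusted p 0.304), while its start-site peak had −0.17. Psat1, the next enzyme, had 67.3 ± 2.57 CPM (WT) against 60.9 ± 4.34 CPM (Flcn KO) at its start site, −0.14 (SE 0.11, edgeR adjusted p 0.654). Psph, the last, had 1 peak inside the gene at −0.27 (SE 0.24, edgeR adjusted p 0.714).

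Mthfd2, a mitochondrial folate enzyme, had a log2 difference of −0.10 (SE 0.14) at its start site, and Aldh18a1, a proline synthesis enzyme, one of −0.04 (SE 0.15). Both peaks of Shmt2 held too few counts to be tested, with 37 counts over the 4 WT and 24 over the 4 Flcn KO libraries at its start site.

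At the tRNA synthetase genes, the strongest peak of each had a log2 difference of 0.19 (SE 0.12) at Aars, −0.11 (SE 0.14) at Gars, −0.12 (SE 0.09) at Nars, 0.30 (SE 0.17) at Sars, 0.02 (SE 0.09) at Tars and −0.16 (SE 0.14) at Wars. These charge alanine, glycine, asparagine, serine, threonine and tryptophan tRNAs. The edgeR adjusted p values ran from 0.469, at Sars, to 0.951, at Tars. At Tars the levels were 156 ± 10.3 CPM (WT) against 159 ± 9.37 CPM (Flcn KO; SD, n = 4). Among feedback regulators, the start-site peak of Trib3, a pseudokinase that restrains ATF4, was at 0.04 (SE 0.13), and the strongest peak of Ppp1r15b, the constitutive eIF2α phosphatase subunit, was at −0.05 (SE 0.10). The 1 peak of Gdf15, 2.2 kb past the start site, was at −0.12 (SE 0.26).

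Summing all peaks of a gene gave 1 value for each of the 26 genes, and 0 were called by edgeR, DESeq2 or limma-voom; edgeR called 252, or 1.87%, of all 13483 genes tested. At an unadjusted p below 0.05 there were 2, Asns and Sars, against 12.6% of all genes. The Asns sum had 10.0, 10.0, 8.02 and 9.68 CPM in WT and 21.7, 14.4, 12.4 and 11.3 CPM in Flcn KO, which is 0.68 ± 0.24 on the log2 scale (SE, edgeR adjusted p 0.169) with no overlap. Without Flcn KO replicate 1 it was 0.43. The Sars sum was at 0.27 (SE 0.11, edgeR adjusted p 0.288). Eif2ak3, summed over its 6 peaks, had 572 ± 12.2 CPM (WT) against 597 ± 19.3 CPM (Flcn KO), 0.06 (SE 0.07, edgeR adjusted p 0.806).

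Beyond the 32 members, 69 other genes of the pathway were read in the same way: eIF2 and eIF2B subunits, unfolded protein response and mitochondrial stress genes, amino acid transporters and other ATF4 targets, and the other tRNA synthetases. Of these, 61 had a tested peak, 186 in all, with 1 called higher and 3 lower (2.15% in all, against 2.37% of all tested peaks). The median log2 fold change was −0.03. The 1 higher call lay inside Nfe2l2, the gene for the oxidative stress factor NRF2, 15.5 kb past a start site. It had 2.08, 2.23, 2.04 and 0.984 CPM in WT and 6.06, 5.88, 5.97 and 9.14 CPM in Flcn KO, 1.84 on the log2 scale (SE 0.40, edgeR adjusted p 0.00602).

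The neutral amino acid transporter gene Slc1a4 had a lower peak 19.0 kb beyond the gene, with 10.8, 17.4, 11.7 and 13.3 CPM in WT and 5.47, 2.67, 1.49 and 5.33 CPM in Flcn KO, −1.83 (SE 0.32, edgeR adjusted p 0.000448). A peak inside Dars, the aspartyl-tRNA synthetase gene, had 16.7 ± 3.17 CPM (WT) against 7.89 ± 2.36 CPM (Flcn KO), −1.05 (SE 0.25, edgeR adjusted p 0.0110). Leaving out WT replicate 2, WT replicate 4 or Flcn KO replicate 3 ended that call (edgeR adjusted p up to 0.0591). A peak inside Slc7a1, the cationic amino acid transporter gene, had 59.5 ± 6.05 against 41.7 ± 3.99 CPM, −0.51 (SE 0.13, edgeR adjusted p 0.0180), and was no longer called when WT replicate 3 or Flcn KO replicate 4 was left out (up to 0.0995). All 4 peaks separated the groups. By class, the transporters and other targets had 1 higher and 2 lower of 80, the other synthetases 0 and 1 of 24, and the eIF2 and eIF2B subunits (21 peaks), unfolded protein response genes (52) and mitochondrial stress genes (9) had 0 calls.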

How the data were processed

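ATAC-seq was deposited by the authors as 1 table of raw counts per peak for 8 libraries (4 WT, 4 Flcn KO, grouped by their titles), without normalization, in mm10. The submitters' processing notes name bedtools 2.25.0, MACS2 2.1.1, SAMtools 1.9, Picard 2.9.4, BWA 0.7.16 and Trimmomatic 0.36; on their roles, duplicate handling, any transposase shift or pooling for peak calling nothing is given in the sources used here. Even numbers made up 88.7% to 92.7% of each library's counts, so both ends of most pairs appear to be counted; without molecular identifiers counts are not independent molecules, and errors rest on the spread between replicates.

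Peaks were assigned to the nearest protein-coding gene span of the RefSeq GRCm38.p6 table (51214 of 57199 peaks lay within 50 kb of one). Counts passing edgeR's filterByExpr (minimum count 10; 47859 peaks) were TMM-scaled and tested by the quasi-likelihood method of edgeR 4.0.16 (robust dispersion; R 4.3.3), genotype as the only term, with Benjamini-Hochberg adjustment over all tested peaks and calls at 0.05. CPM are edgeR's normalised counts; each SE is the fitted change divided by the square root of its F value. Gene sums were tested likewise over 13483 genes. The code was tested on simulated data. Alternatives were DESeq2 1.42.0 (size factors and Wald test), limma 3.58.1 (voom with sample weights), library size alone, loess offsets, no filter, a minimum count of 30, non-robust dispersion, halved counts, a replicate block, each library left out and other assignments.

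The 32 members, the lists and the rule for named genes were chosen with earlier results of these data known. Named were member peaks called or at an unadjusted p below 0.05, each member's strongest tested peak, members without a tested peak, and called peaks of the other pathway genes. Replicate numbers were not stated to pair libraries.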

Additional observations from a re-analysis of the deposited data

Results flagged for a closer look

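Among 70 groups of 4 libraries at 35 named peaks, 6 single libraries stood apart from the other three of their group by more than the 95% critical value of Dixon's test; chance alone flags about 1 group in 20. At the Chac1 start site Flcn KO replicate 1 held 12.5 CPM, with the others between 4.48 and 5.34 CPM. At the peak 40.0 kb before the Asns start site Flcn KO replicate 3 was the lowest, 5.97 CPM against 6.86 to 7.04 CPM. At the Psat1 start site WT replicate 4 held 63.5 CPM against 68.3 to 68.9 CPM, and at the Gars start site WT replicate 2 held 34.8 CPM against 40.5 to 40.8 CPM. At the called Nfe2l2 peak WT replicate 4 was the lowest with 0.984 CPM (others 2.04 to 2.23 CPM) and Flcn KO replicate 4 the highest with 9.14 CPM (others 5.88 to 6.06 CPM), both in the direction of the group difference.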

How the results depend on the processing

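The number of member peaks called higher was 1 in most settings. It was 0 with the stricter filter, which leaves the Eif2ak3 peak out, ran from 0 to 1 when single libraries were left out, and was 4 when every peak within 50 kb of a member was counted, a setting chosen after seeing the data (188 tested peaks). Assignment by the nearest start site, also added then, gave 1. The number called lower was 0 and the number of genes called on summed peaks 0 in all settings run. The members' median log2 fold change stayed between −0.09 and −0.02. The other pathway genes had 0 higher with the stricter filter, and 2 to 4 lower over all settings.

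Of 661 alternative values for 37 single peaks or gene sums, 633 kept their direction and their side of the threshold, 7 lost a call (at Eif2ak3, Dars and Slc7a1, given above) and 21 changed sign, all at results without a call. With single libraries left out, the changed signs were in the ranges −0.18 to 0.0571 for Aldh18a1, −0.0157 to 0.65 for the Asns start site, −0.14 to 0.0850 for the Phgdh peak 8.3 kb before its start site, −0.14 to 0.0928 for Eif2ak2, −0.22 to 0.47 for Chac1, −0.12 to 0.0315 for Ppp1r15b, −0.0596 to 0.12 for Trib3, −0.26 to 0.0654 for Gdf15 and −0.0065 to 0.0637 for Tars. The cause was not tested. At the Eif2ak2 start site the sign also changed under limma-voom (−0.0219) and with the replicate block (−0.0008).

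The deviations of libraries with the same replicate number had correlations of 0.08, −0.05, 0.06 and 0.05. Those with different numbers ran from −0.15 to 0.17, and with 4 libraries a group these values cannot decide whether the numbers pair them. With the replicate block 736 peaks were called higher and 639 lower over all peaks, against 644 and 489, and the member calls stayed 1 and 0. Over all peaks, calls were 863 higher and 934 lower without Flcn KO replicate 1 and 448 and 217 without WT replicate 2. Peaks of a few CPM, such as those of Shmt2 and the weak Eif2ak2 peak, rest on few counts, and whether deeper libraries would change their results was not tested.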
